A study of Mus musculus with 4 samples.

Results

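The expression of 10 genes that set the amount and the shape of mitochondria was compared between spermatogonia induced to differentiate with retinoic acid (RA) and undifferentiated spermatogonia. The genes were chosen by name, as the rows of the deposited expression table that carry their symbols, and all 10 were found among its 19991 genes. They fall into 4 genes of mitochondrial biogenesis (Ppargc1a, Ppargc1b, Nrf1, Tfam), 3 of fusion (Mfn1, Mfn2, Opa1) and 3 of fission (Dnm1l, Fis1, Mff).

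RNA-seq was performed on 2 libraries of differentiating spermatogonia (dSG), which had been kept with RA for 36 h, and on 2 libraries of undifferentiated spermatogonia (SG), which received the solvent DMSO. Both groups are wild-type mouse spermatogonia grown in vitro in Stempro34 medium with FGF, ESGRO (leukemia inhibitory factor) and GDNF/EGF, from cultures that the study started with CD9+/c-Kit- cells sorted from the testes of young mice. The labels give the strain as C57BL/6 and the RA dose as 100 µM, while the methods name DBA mice, DBA mice crossed with GFP mice, and a dose in nM, so that strain and dose are not settled here. No source used here says that the libraries of a group came from separate cultures, and the p-values therefore measure only the spread between these libraries, which may be technical.

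In vertebrate cells, new mitochondria are made through a relay of nuclear genes. The PGC-1 coactivators, among them those encoded by Ppargc1a and Ppargc1b, bind transcription factors such as NRF1, GABPA and the estrogen-related receptors. These factors switch on nuclear genes of the respiratory chain and Tfam, whose product then packages mitochondrial DNA and acts as a factor in its transcription. The network is reshaped by large GTPases: MFN1 and MFN2 join outer membranes and OPA1 joins inner membranes, while DNM1L (also called DRP1) is recruited from the cytosol by adaptors such as MFF and FIS1 and cuts the organelle. Spermatogonia are known for small, rounded mitochondria, and fusion by the mitofusins is known to be needed for later male germ cell development in mice.

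Expression is given as normalized counts, which are reads of a gene divided by a size factor of its library, with no division by gene length. The dSG libraries held 22307745 and 26921478 reads in genes, and the SG libraries held 7484560 (replicate 1) and 26953654 (replicate 2). SG replicate 1 stood apart from the others in depth, and it had reads in 16660 genes, against 18753 and 18899 in dSG and 18854 in SG replicate 2. In it 1 read was worth 3.26 normalized counts, against 0.725 and 0.626 in dSG and 0.629 in SG replicate 2. This is more than its lower depth alone would give, so its normalized counts had the largest total, which bears on every SG mean. Across genes, the SD of the log2 difference between replicates was 0.20 for the dSG pair and 0.81 for the SG pair, which does not say which SG library deviates. For the dSG mean minus SG replicate 2 it was 0.81 as well, a value that also holds the difference between the groups. Germ cell identity was checked by Ddx4, a germ cell RNA helicase, with 5392 and 5712 normalized counts in dSG and 3601 and 5696 in SG. Of all 6 germ cell markers, 0 passed the test used below in either direction. Both dSG libraries lay above SG for 1 and below it for 2, against 33.2% and 32.7% of all genes, and 3 overlapped. The 2 below were Sall4 (6937 and 7292 in dSG, 15493 and 9151 in SG) and Dnd1 (1464 and 1458 in dSG, 3422 and 1758 in SG), named after their values were seen. The receptor gene Kit, which marks differentiating cells, had 5825 and 5921 in dSG and 319 and 347 in SG, and the RA-induced gene Stra8 had 12205 and 12236 in dSG and 134 and 37.8 in SG. The GDNF receptor gene Gfra1, which marks undifferentiated cells, had 1667 and 1629 in dSG and 4491 and 4414 in SG. Over the whole lists, 2 of 6 differentiation markers rose in dSG (Kit and Stra8) and none fell, while Dmrtb1, named after its values were seen, had 435 and 396 in dSG and 1111 and 475 in SG without passing. Of 9 markers of undifferentiated spermatogonia, 8 were tested, 6 fell and none rose. The 15 fibroblast and feeder markers summed to 5430 and 5499 in dSG and 15167 and 11031 in SG, and 14 Sertoli, Leydig and macrophage markers summed to 923 and 914 in dSG and 1229 and 1160 in SG, with none at 0 in all libraries. In each of these lists 1 gene fell and none rose (of 7 and 8 tested). The calls in all these marker lists are to be read against 4.91% of all genes that fell and 1.16% that rose. The fibroblast genes did not all go one way: 7 of the 15 lay below SG in both dSG libraries and 6 lay above it, mostly at low counts, such as Acta2 (14.5 and 21.3 in dSG, 0 and 0.629 in SG), while Fn1, Col1a1 and Pdgfra, all below SG, made up most of the sum (these 4 were named after their values were seen). The part of other cells in the values of the mitochondrial genes was not tested. In bulk RNA, fewer cells of a type and less RNA per cell cannot be told apart.

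Of the 10 genes, 9 passed the filter on low values (at least 20 normalized counts in at least 2 libraries), and Ppargc1a did not. By the limma test used across 14108 genes, 0 of the 9 passed an adjusted p of 0.05, in either direction, against 6.07% of all genes tested (1.16% higher in dSG, 4.91% lower). None had an unadjusted p under that threshold, against 26.8% of all genes by limma, 27.3% by edgeR and 25.2% by DESeq2. Both edgeR and DESeq2 called 0 of the 9 as well, against 7.4% of all genes by edgeR (1.4% higher, 6% lower) and 13.7% by DESeq2 (3.32% higher, 10.4% lower). All 856 genes called by limma differed at least 2-fold, while the largest fold of the 9 genes was 1.95 (Mff). The 0 calls by limma therefore do not show that these genes were unchanged. The values of the 2 groups did not overlap for 7 of the 9 genes, a share to be read against 65.9% of all genes. Both dSG libraries lay above both SG libraries for 5 genes (Ppargc1b, Nrf1, Tfam, Opa1, Mff) and below them for 2 (Mfn1, Mfn2), while 33.2% of all genes lay above and 32.7% below. The plot of normalized counts by library shows these values.

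**Figure D1:**
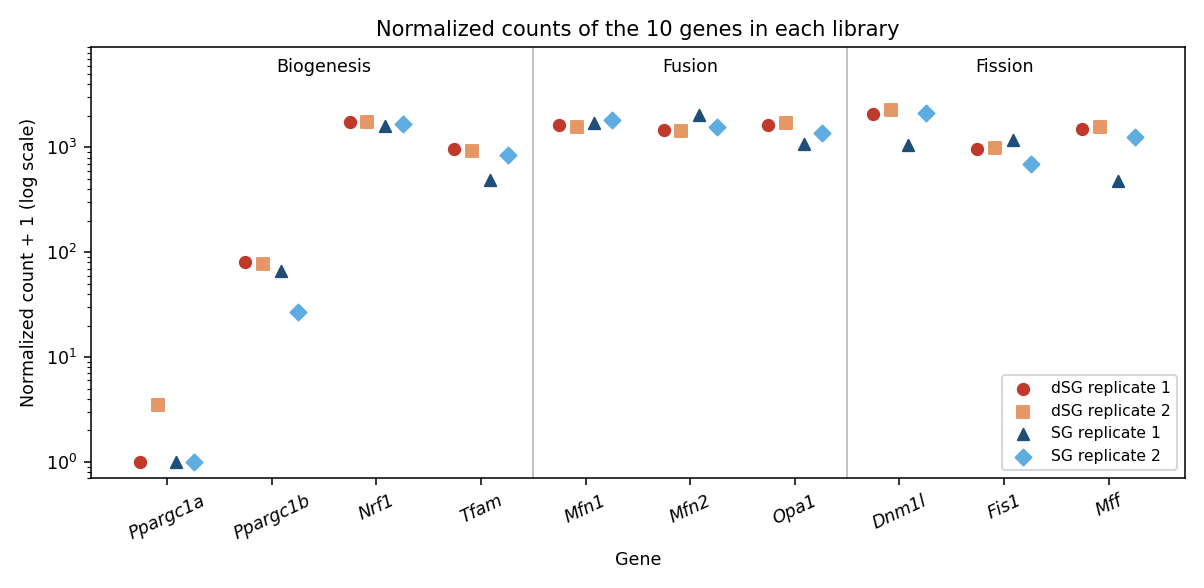
Normalized count plus 1 (vertical axis, log scale) of each of the 10 genes in the dSG libraries (red circles and orange squares) and in the SG libraries (dark blue triangles and light blue diamonds), with the genes grouped by role. The dSG replicates nearly coincide for the 9 genes tested, the SG replicates lie apart for Ppargc1b, Tfam, Dnm1l, Fis1 and Mff, and Ppargc1a was found in dSG replicate 2 alone.

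Levels can be set against each other between genes only per length, and they were therefore divided by the kilobases of merged exons. For some genes this length far exceeds the longest transcript (10282 against 4042 bases in Nrf1, 9757 against 3918 in Mff). The order below rests on that choice, and the places of Nrf1 and Mff in it could differ with transcript length. On this scale the highest mean over the 4 libraries belonged to Fis1, at 561 normalized counts per kb (range 408 to 692), followed by Dnm1l at 362 (200 to 435), Mfn2 at 314 (277 to 397) and Mfn1 at 276 (258 to 299). Opa1 at 184 (136 to 217), Tfam at 181 (109 to 215), Nrf1 at 165 (157 to 170) and Mff at 123 (49.4 to 159) formed a lower set. Ppargc1b stood far below at 15.5 (6.47 to 20.2), and Ppargc1a was close to absent at 0.0949 (0 to 0.380). The ranges of neighbours in this order overlapped everywhere except between Mfn1 and Opa1, between Mff and Ppargc1b, and between Ppargc1b and Ppargc1a. By mean per kb of merged exons, Fis1, Dnm1l, Mfn2 and Mfn1 thus stood above the biogenesis genes of this set. The ranges of Dnm1l and Tfam overlapped, however. For Nrf1 the statement may not hold with transcript length, which is far shorter than its merged exons. Ppargc1a and Ppargc1b stood at the bottom. A low level did not hold for every coactivator of this kind. Pprc1, which encodes a related coactivator, is outside this set and belongs to a wider list described below. Its mean was 1587 normalized counts per kb (range 1264 to 2496), above that of Fis1. The order was alike in the groups, apart from Dnm1l and Mfn2, which changed places, and Nrf1, which ranked 7 in dSG and 5 in SG.

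The promoter windows of 9 of the 10 genes, all but Ppargc1b, were taken from RefSeq (GRCm38.p6; 250 bases before to 50 after a start site), because NRF1 is itself 1 of the 10 and GABPA is its usual partner in the control of respiratory genes. The NRF1 motif GCGCATGCG was searched, like the others, on both strands and occurred in 1.75% of all 32851 windows and, of the 9 genes, in that of Opa1. The GABPA motif CCGGAAGT occurred in 3.89% of windows and in those of Tfam, Mfn1 and Fis1. The shares count windows, while a gene is named if any of its windows matched, so the shares and the genes are not on the same scale. The stretches around these matches are shown with the motif in capitals, read 5′ to 3′ on the strand of the gene, and none of the 9 genes matched both motifs.
Opa1, chr16:29579234-29579333, plus strand: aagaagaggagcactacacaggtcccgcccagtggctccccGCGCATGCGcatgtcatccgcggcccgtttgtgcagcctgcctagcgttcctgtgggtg
Tfam, chr10:71238073-71238102, minus strand: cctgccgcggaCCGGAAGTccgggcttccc
Mfn1, chr3:32529427-32529456, plus strand: gatccgaagcgCCGGAAGTagccgccccta
Fis1, chr5:136953246-136953275, plus strand: ggaggcaccacCCGGAAGTtcaggcttccc
With the start site counted as 0, the capitals begin at base -59 in Opa1, -47 in Tfam, -44 in Mfn1 and -18 in Fis1. The Opa1 and Mfn1 stretches lie upstream of annotated exons, the Tfam stretch lies in a Tfam exon of the GENCODE annotation, and the last base of the Fis1 stretch is its start site. A window at another Fis1 start site held the GABPA letters as well, beginning at base 19. The YY1 motif AAGATGGCG (1.4% of windows), the estrogen-related receptor motif TCAAGGTCA (0.423%), the cyclic AMP response element TGACGTCA (1.79%) and the direct repeat bound by RA receptors, AGGTCA followed after 5 bases by AGGTCA (0.00913%), matched none of the 9 genes' windows. A match is a description of the letters, and no binding was measured.

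Among the biogenesis genes, Ppargc1b had the largest fold between the groups (1.82, and a log2 fold change of 1.52 that passed the test after a correction for the GC content of transcripts), followed by Tfam (1.45) and Nrf1 (1.07, with a sign that turned after that correction), none past the threshold before it, and Ppargc1a was barely detected. Ppargc1a (ENSMUSG00000029167; GRCm38 chr5:51454250-51567726, minus strand) encodes PGC-1α, the coactivator that responds to cold, fasting and exercise in fat, liver and muscle. It had 4 reads in dSG replicate 2, a normalized count of 2.50, and 0 reads in dSG replicate 1 and in both SG libraries. A count of 0 allows a level of up to 3 reads, which is 2.18 normalized counts in dSG replicate 1, 9.78 in SG replicate 1 and 1.89 in SG replicate 2. No difference was detectable at this depth, and the gene entered no test.

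Ppargc1b (ENSMUSG00000033871; chr18:61298136-61400431, minus strand) encodes PGC-1β, a relative of PGC-1α that also coactivates estrogen-related receptors. Its normalized counts were 80.5 and 76.4 in dSG and 65.2 and 25.8 in SG, from 111 and 122 reads in dSG and 20 and 41 reads in SG. Both dSG libraries lay above both SG libraries, with dSG close to SG replicate 1 and well above SG replicate 2. The means were 78.4 ± 2.94 in dSG and 45.5 ± 27.8 in SG (SD, n = 2 each), a log2 fold change of 0.86 (standard error (SE) 0.47, 95% confidence interval -0.40 to 2.12, adjusted p = 0.304 by limma). All fold changes here set dSG over SG on the log2(normalized count + 4) scale, which understates the change of low genes. Against SG replicate 2 alone the log2 difference was 1.47, and against SG replicate 1 alone it was 0.25.

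The share of Ppargc1a in the sum of Ppargc1a and Ppargc1b per kb was 0% and 1.95% in dSG and 0% in each SG library. The difference of 0.973 percentage points had p = 1 by the exact permutation test (2-sided), whose smallest possible p with 2 against 2 libraries is 0.333. Ppargc1b was therefore the coactivator that supplied nearly all reads of the pair in every library.

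Nrf1 (ENSMUSG00000058440; chr6:30047988-30153458, plus strand) encodes nuclear respiratory factor 1, which is not the stress factor of the same nickname encoded by Nfe2l1. It had 1743 and 1752 normalized counts in dSG and 1610 and 1671 in SG. Both dSG libraries stood slightly above both SG libraries, and the replicates lay close together in each group. The means were 1748 ± 6.64 in dSG and 1640 ± 43.0 in SG (SD, n = 2 each). The log2 fold change was 0.09 (SE 0.17, interval -0.36 to 0.54, adjusted p = 0.734 by limma), and the interval left out a difference of 2-fold in either direction.

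Tfam (ENSMUSG00000003923; chr10:71225464-71238280, minus strand), the packaging protein and transcription factor of mitochondrial DNA, had 955 and 924 normalized counts in dSG and 486 and 855 in SG. Both dSG libraries were above both SG libraries, but SG replicate 2 was close to them and SG replicate 1 was low. The means were 939 ± 21.3 in dSG and 670 ± 261 in SG (SD, n = 2 each), and the log2 fold change was 0.54 (SE 0.32, interval -0.32 to 1.40, adjusted p = 0.331 by limma). It was 0.13 against SG replicate 2 alone and 0.95 against SG replicate 1 alone. The SG replicates differed from each other by -0.81 (replicate 1 minus replicate 2), which was more than the difference between the groups.

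Of the fusion genes, both mitofusins had lower values in dSG (0.906-fold for Mfn1 and 0.802-fold for Mfn2) and Opa1 had higher values (1.38-fold), with none past the threshold and a sign that turned for Mfn2 after the GC correction. Mfn1 (ENSMUSG00000027668; chr3:32529465-32579239, plus strand), the mitofusin with the stronger tethering activity, had 1623 and 1580 normalized counts in dSG and 1711 and 1829 in SG. The values of the groups did not overlap, and the difference of the group means was a little wider than the step between the SG replicates. The means were 1602 ± 30.9 in dSG and 1770 ± 83.2 in SG (SD, n = 2 each), a log2 fold change of -0.14 (SE 0.17, interval -0.60 to 0.31, adjusted p = 0.596 by limma).

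Mfn2 (ENSMUSG00000029020; chr4:147873599-147904704, minus strand), which also tethers mitochondria to the endoplasmic reticulum, had 1451 and 1436 normalized counts in dSG and 2060 and 1573 in SG. The dSG libraries lay below both SG libraries, and SG replicate 1 was the high one. The means were 1444 ± 10.1 in dSG and 1816 ± 344 in SG (SD, n = 2 each), with a log2 fold change of -0.32 (SE 0.21, interval -0.88 to 0.25, adjusted p = 0.371 by limma). Against SG replicate 2 alone the difference was -0.12, and against SG replicate 1 alone it was -0.51.

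The balance of the 2 mitofusins was described by the share of Mfn1 in their sum per kb. It was 48.7% and 48.3% in dSG and 41.4% and 49.7% in SG, so the dSG libraries lay between the SG libraries. The difference of the means was 2.99 percentage points (p = 1 by the same 2-sided exact permutation test, with the same smallest possible p of 0.333), and it was -1.17 points without SG replicate 1. The 2 mitofusins thus had nearly equal levels per length in 3 of the 4 libraries, and somewhat more Mfn2 than Mfn1 in SG replicate 1.

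Opa1 (ENSMUSG00000038084; chr16:29579334-29654884, plus strand), the GTPase that fuses inner membranes and holds cristae together, had 1631 and 1711 normalized counts in dSG and 1072 and 1367 in SG. Both dSG libraries were above both SG libraries, with SG replicate 1 the lower of the SG pair. The means were 1671 ± 56.5 in dSG and 1220 ± 209 in SG (SD, n = 2 each). The log2 fold change was 0.46 (SE 0.21, interval -0.09 to 1.01), and Opa1 had the smallest p of the 9 genes, 0.0820 before adjustment and 0.236 after it, by limma. Against SG replicate 2 alone the difference was 0.29, and against SG replicate 1 alone it was 0.64.

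All 3 fission genes had higher means in dSG, by 1.08 to 1.95-fold, yet 2 of them overlapped between the groups, and none passed the threshold. After the GC correction the log2 difference of Mff was 0.07 and the sign of Dnm1l turned, and without SG replicate 2 the sign of Fis1 turned. Dnm1l (ENSMUSG00000022789; chr16:16312230-16358959, minus strand), the GTPase that cuts mitochondria, had 2091 and 2264 normalized counts in dSG and 1043 and 2141 in SG. The dSG libraries lay on either side of SG replicate 2, and SG replicate 1 was lowest. The means were 2177 ± 122 in dSG and 1592 ± 776 in SG (SD, n = 2 each), a log2 fold change of 0.54 (SE 0.39, interval -0.49 to 1.57, adjusted p = 0.395 by limma). The difference was 0.02 against SG replicate 2 alone and 1.06 against SG replicate 1 alone. The level of Dnm1l is uncertain, because 54.8% of its longest transcript matches the loci Gm13719 and Gm49521 at 90% identity or more. Neither locus has a row among the deposited genes, and how the counting handled reads that match more than 1 locus was not stated.

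Fis1 (ENSMUSG00000019054; chr5:136953275-136966234, plus strand), the outer-membrane protein that is the main adaptor of fission in yeast and has a smaller part in it in mammals, had 974 and 988 normalized counts in dSG and 1186 and 699 in SG. Both dSG libraries lay between the SG libraries. The means were 981 ± 9.52 in dSG and 943 ± 344 in SG (SD, n = 2 each), a log2 fold change of 0.11 (SE 0.31, interval -0.71 to 0.92, adjusted p = 0.831 by limma). The direction depended on the SG library: the difference was 0.49 against SG replicate 2 alone and -0.27 against SG replicate 1 alone.

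Mff (ENSMUSG00000026150; chr1:82724890-82752394, plus strand), the main receptor of DNM1L on mammalian mitochondria, had the largest fold of the 9 genes by limma, while edgeR and DESeq2 placed Ppargc1b above it. It had 1488 and 1553 normalized counts in dSG and 482 and 1259 in SG. Both dSG libraries stood above SG replicate 2 by a small step and above SG replicate 1 by a large one. The means were 1521 ± 46.5 in dSG and 870.4 ± 549 in SG (SD, n = 2 each), 1.95-fold, with a log2 fold change of 0.96 (SE 0.49, interval -0.35 to 2.27, adjusted p = 0.278 by limma). The SG replicates differed by -1.38 (replicate 1 minus replicate 2), and the difference between the groups was 0.27 against SG replicate 2 alone and 1.65 against SG replicate 1 alone.

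The spread of these genes lay almost entirely in the SG group. The median absolute log2 difference between replicates was 0.76 for the SG pair and 0.05 for the dSG pair over the 9 genes, against 0.54 for the SG pair and 0.09 for the dSG pair over all genes tested. For all 9 genes the SG replicates differed more than the dSG replicates did, and for 6 of the 9, all but Nrf1, Mfn1 and Opa1, the SG replicates differed more than the group means did. The median absolute log2 difference between the groups was 0.46 for the 9 genes and 0.49 for all genes tested.

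The direction in which the SG libraries differed went with base composition. The GC content of the longest transcript ran from 37.3% in Mff and 40.9% in Dnm1l, through 43.5% in Opa1, 44.9% in Tfam, 45.4% in Nrf1 and 45.9% in Mfn1, to 53.1% in Mfn2, 54.4% in Fis1 and 57.8% in Ppargc1b. The log2 difference between the SG replicates (replicate 1 minus replicate 2) was -1.38 for Mff and -1.03 for Dnm1l at the low end, and 0.76 for Fis1 and 1.22 for Ppargc1b at the high end. Over the 9 genes, Spearman's rho of this difference with GC content was 0.97, and over 14102 genes it was 0.73. These genes share their libraries, so both values are descriptions. For dSG replicate 1 minus dSG replicate 2 the rho was 0.67 over the 9 genes and 0.28 over all, with differences between the replicates of at most 0.11 for any of the 9.

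**Figure D2:**
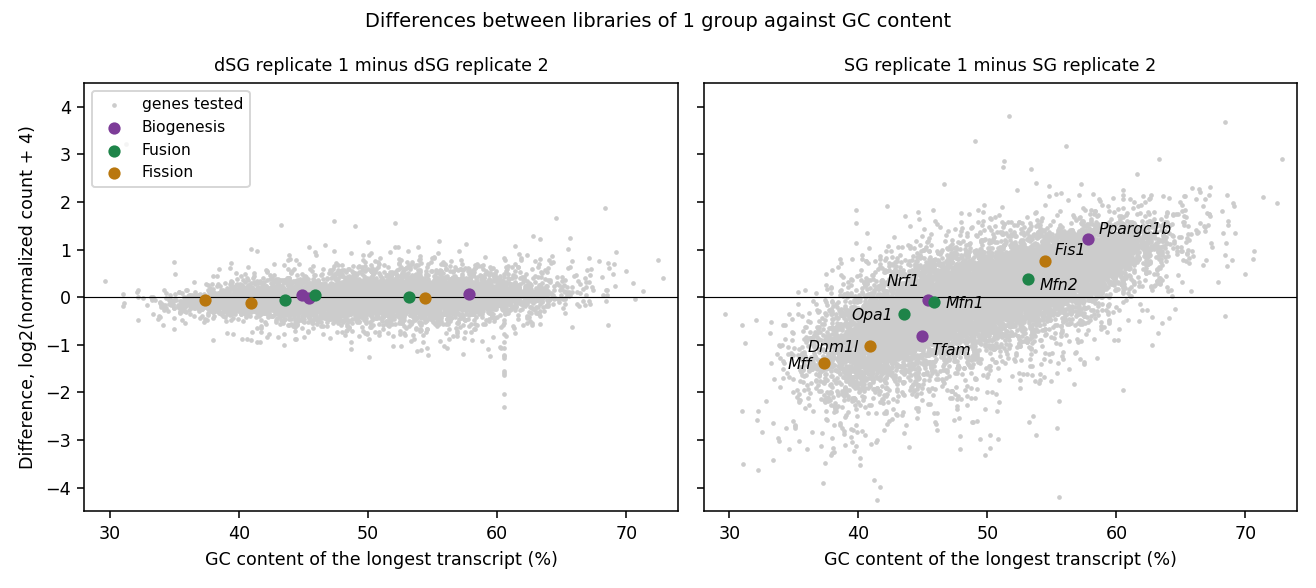
Difference between the replicates of a group in log2(normalized count + 4) (vertical axis) against the GC content of the longest transcript in percent (horizontal axis), for dSG (left) and SG (right), with all genes tested in grey and the 9 mitochondrial genes coloured by role. The 9 genes lie near 0 in dSG and climb with GC content in SG, where Mff is at -1.38 and Ppargc1b at 1.22.

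Each library was therefore also corrected for GC content, with all else in the test unchanged. The dSG mean minus the SG mean also went with GC content, with a rho of -0.55 over all genes and -0.42 over the 9. Against SG replicate 2 alone the rho was -0.23 over all genes and 0.22 over the 9. The correction removes such a trend between the groups too, whatever its source, which was not tested. Its intervals take the fitted curve as known. After the correction 1 of the 9 genes, Ppargc1b, passed the threshold, against 22.4% of all genes (10.9% higher in dSG, 11.5% lower). Its log2 fold change was 1.52 (SE 0.26, interval 0.83 to 2.21, adjusted p = 0.0228 by limma). The log2 difference of Mff, 0.96 before the correction, was 0.07 after it (interval -0.23 to 0.37), and that of Opa1 was 0.05 (-0.28 to 0.37). The sign turned for 3 genes, Nrf1 (-0.16), Mfn2 (0.03) and Dnm1l (-0.09), none of which passed. Fis1 stood at 0.55 (interval 0.15 to 0.95, adjusted p = 0.0633), Tfam at 0.24 (interval -0.20 to 0.69) and Mfn1 at -0.35 (interval -0.68 to -0.02, adjusted p = 0.110). The median log2 fold change of the 9 genes was 0.46 before the correction and 0.05 after it, beside 0.01 and 0.08 over all genes. After the correction the interval lay within 2-fold in either direction for 8 of the 9 genes, all but Ppargc1b, against 4 before it.

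**Figure D3:**
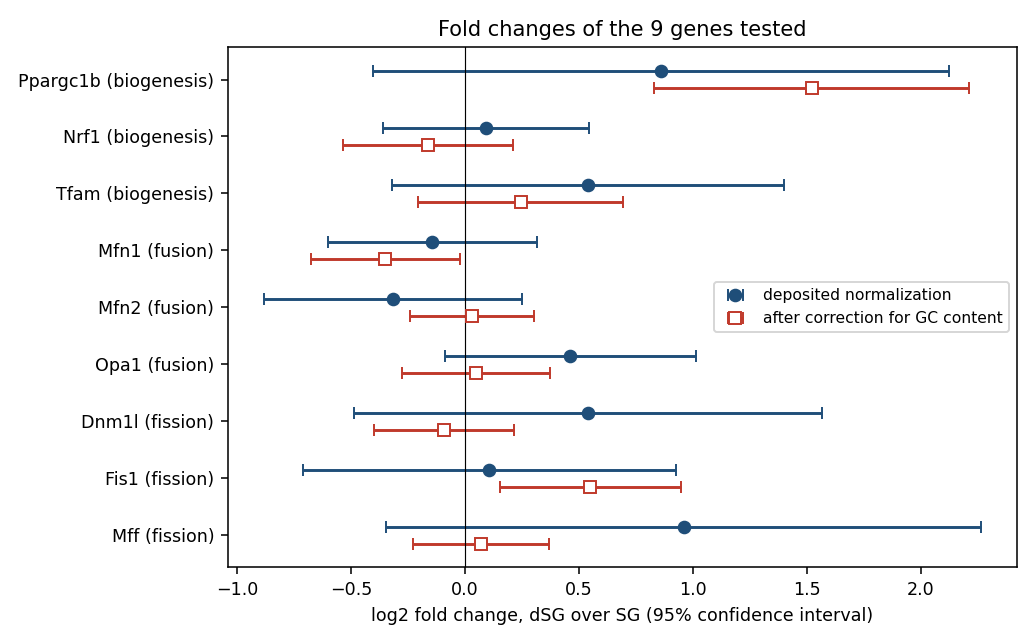
Log2 fold change of dSG over SG (horizontal axis) with its 95% confidence interval from limma for the 9 genes tested, with the deposited normalization (filled blue circles) and after correction for GC content (open red squares). The intervals with the deposited normalization all cross 0, and after the correction those of Ppargc1b, Fis1 and Mfn1 do not, of which Ppargc1b alone passed an adjusted p of 0.05.

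The genes that work around these 10 were described from 7 lists of their pathways, 111 genes in all, of which 106 were tested and 3 passed the threshold, against 6.07% of all genes. Counts at an unadjusted p under 0.05 are to be read against 10.5% of all genes that were higher in dSG and 16.3% that were lower at that limit. The partners and upstream regulators of biogenesis came first. Of 16 genes tested of 19, 1 rose and 1 fell, with a median log2 fold change of 0.35. Esrrb, an orphan nuclear receptor that is a partner of PGC-1 coactivators and is also known as a factor of pluripotent cells, had 38.4 and 49.4 normalized counts in dSG and 626 and 432 in SG. Its values did not overlap and differed far more between the groups than within them. It fell by 3.46 on the log2 scale (SE 0.30, adjusted p = 0.0249 by limma), and by 2.99 after the GC correction (adjusted p = 0.00344). Prkaa2, the α2 catalytic subunit of the energy sensor AMPK, which phosphorylates PGC-1α and MFF, had 221 and 244 in dSG and 78.2 and 94.4 in SG. It rose by 1.39 on the log2 scale (SE 0.24, adjusted p = 0.0483 by limma), and the call was lost after the GC correction, at 0.74 (adjusted p = 0.102).

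Genes that replicate, maintain and transcribe mitochondrial DNA gave 0 calls among 25 tested, with an unadjusted p under 0.05 for 3 that were higher in dSG and 2 that were lower and a median of 0.15. The smallest p-values belonged to Slc25a33, a pyrimidine nucleotide carrier of the inner membrane, with 265 and 250.3 normalized counts in dSG and 463 and 386 in SG (log2 fold change -0.71, adjusted p = 0.133 by limma). Next was Tfb1m, the methyltransferase of mitochondrial ribosomal RNA, with 317 and 296 in dSG and 153 and 201 in SG (0.79, adjusted p = 0.137). Around the mitofusins and Opa1, 0 of 18 regulators were called, with an unadjusted p under 0.05 for 1 that was higher in dSG and 0 that were lower and a median of -0.15. Miga1, an outer-membrane protein that favours fusion, had 899 and 938 in dSG and 414 and 496 in SG (1.01, adjusted p = 0.0648). Pld6, the mitochondrial phospholipase that is also a piRNA processing factor of germ cells, had 368 and 355 in dSG and 257 and 140 in SG (0.92, adjusted p = 0.191), and after the GC correction it passed at 1.44 (adjusted p = 0.0106).

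The adaptors and regulators of fission gave 0 calls among 16 tested of 17, with an unadjusted p under 0.05 for 2 that were higher in dSG and 2 that were lower and a median of 0.13. Senp5, a SUMO protease that acts on DNM1L, had 905 and 925 normalized counts in dSG and 316 and 446 in SG (log2 fold change 1.28, adjusted p = 0.0617 by limma), and it passed after the GC correction at 0.97 (adjusted p = 0.0105). Inf2, a formin that builds actin where the endoplasmic reticulum pinches mitochondria, had 466 and 454 in dSG and 1991 and 945 in SG (-1.57, adjusted p = 0.0994), and it passed after the correction at -0.78 (adjusted p = 0.0187). For both genes the groups did not overlap. The cristae and MICOS genes, which shape the inner membrane with OPA1, gave 0 calls among 11, with none at an unadjusted p under 0.05 and a median of 0.13. The smallest p-values there were those of Apool (1.25, adjusted p = 0.217) and Immt, the core MICOS subunit (0.49, adjusted p = 0.236).

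The 8 genes of mitochondrial transport along microtubules gave 0 calls, with an unadjusted p under 0.05 for 0 that were higher in dSG and 1 that was lower and a median of -0.01. Trak1, a kinesin adaptor, had 539 and 516 normalized counts in dSG and 1571 and 855 in SG (log2 fold change -1.13, adjusted p = 0.134 by limma), and Rhot1, the Miro GTPase that anchors it, had 1651 and 1765 in dSG and 926 and 1312 in SG (0.63, adjusted p = 0.191). Of the 12 mitophagy genes, 1 fell, none rose, and the median was 0.44. That gene was Optn, an autophagy receptor for mitochondria tagged with ubiquitin, which had 336 and 285 in dSG and 2695 and 1448 in SG. It fell by 2.66 on the log2 scale (SE 0.36, adjusted p = 0.0327 by limma), and by 2.49 after the GC correction (adjusted p = 0.00893). After the correction 5 of the 12 mitophagy genes passed as higher in dSG and 1 as lower, against 10.9% and 11.5% of all genes.

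**Figure D4:**
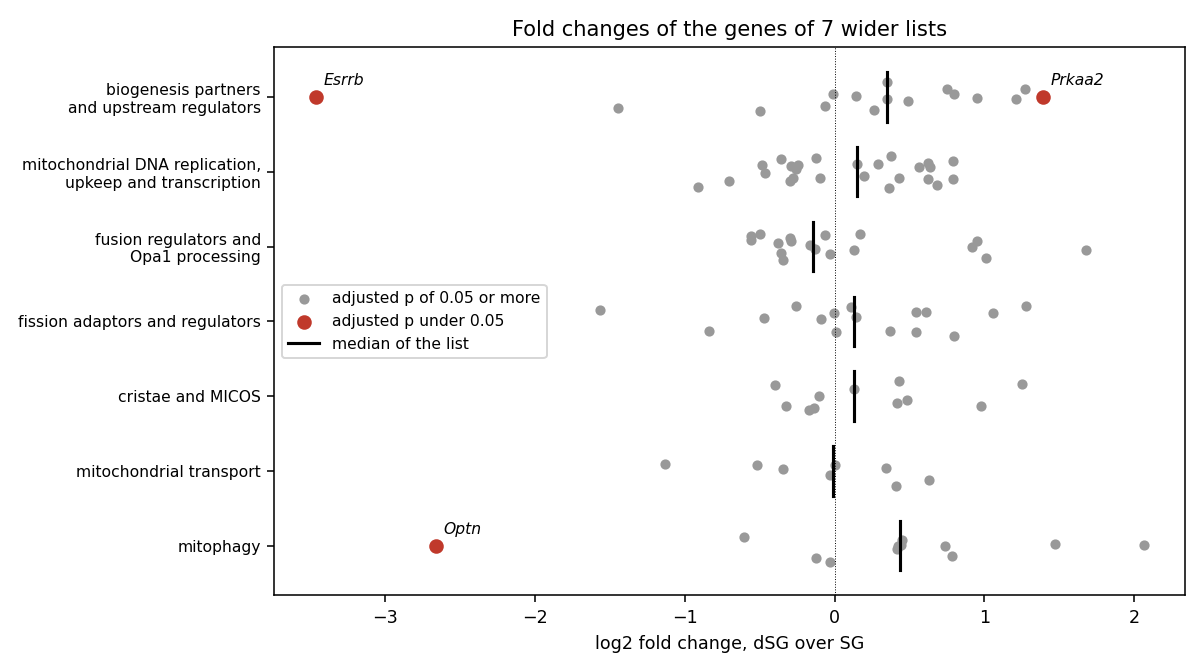
Log2 fold change of dSG over SG (horizontal axis) of the 106 genes tested in 7 lists around mitochondrial biogenesis, fusion, fission and turnover, with the median of each list as a black bar and the genes past an adjusted p of 0.05 by limma in red. Esrrb at -3.46, Optn at -2.66 and Prkaa2 at 1.39 are the 3 genes past the threshold, and the medians lie between -0.15 and 0.44.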

How the data were processed

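All 4 libraries were used. The authors made directional RNA-seq libraries, aligned read pairs to GRCm38 with Subread, and obtained counts with featureCounts 1.5.3. The annotation release and the strand setting of the counting were not stated, so the origin of reads from overlapping genes is uncertain. The deposited signal is a normalized count, that is, reads over a size factor set by the authors for each library. The table's name says RPKM, but dividing each library by its smallest step gave whole reads for 100% of values (tolerance 0.01). The deposited columns of log2 fold changes, standard errors, score (Wald statistic), p-values and adjusted p-values are the authors' own DESeq2 comparison of the groups and were not used.

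Limma-trend (limma 3.58.1, R 4.3.3) tested log2(normalized count + 4) of the 14108 genes that reached 20 normalized counts in at least 2 libraries, with condition as the only term. P-values were adjusted over all of them (Benjamini-Hochberg), and genes were called at an adjusted p under 0.05. GC content, exon lengths and positions came from GENCODE vM21 (GRCm38), and shared sequence from BLAST 2.17.0 matches of at least 100 bases. The GC correction subtracted from each library a spline fit (5 degrees of freedom) of its log2 values on GC content, for the 99.96% of tested genes with a value. Alternatives were other scalings, pseudocounts and filters, limma without trend, edgeR 4.0.16 and DESeq2 1.42.0 on the recovered reads, the replicate number as a block, a 2-fold limit, and each library left out. Only the main limma fit was run on simulated data, which held no GC trend between libraries. The GC-corrected, edgeR, DESeq2 and block fits were not tested in this way. Figures were drawn with matplotlib 3.10.9 in Python 3.11.15.

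The genes and lists were chosen with earlier results of these data known. Named from each wider list were the genes called, or otherwise those with the 2 smallest p-values. Pprc1 was named for its level, after its values were seen. A date stands in place of the symbol in 26 rows, and the 1 of them in a list, March5, was matched by its identifier.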

Additional observations from a re-analysis of the deposited data

How the results depend on the processing

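The count of genes called across all genes was 856. It was 320 with at least 40 normalized counts in every library, 1936 by DESeq2, 3160 after the GC correction, and 458 to 11055 with 1 library left out. Without an SG library the spread was taken from the close dSG pair alone, and the lone SG library was assumed to vary like it. Of the biogenesis genes 0 were called, and 1 after the GC correction (0 to 1 with a library left out). Of the fusion genes 0 were called (0 to 2), and of the fission genes 0 (0 to 3). In the wider lists 3 genes were called, 5 with quantile normalization, 1 with the strict filter, 18 after the GC correction and 11 by DESeq2 (2 to 96 with a library left out). The share of Mfn1 differed by -1.17 to 7.14 points and that of Ppargc1a by 0 to 1.95 points with a library left out. After the GC correction the sign turned for Nrf1 (-0.16), Mfn2 (0.0298) and Dnm1l (-0.0919), and without SG replicate 2 it turned for Fis1 (-0.27, against 0.49 without SG replicate 1). The cause of these differences was not tested.

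Replicate numbers are shared by the groups, but no label says that a number marks a shared culture or day, and with 2 pairs the correlation of same-numbered deviations was 0.23. With the replicate block 2940 genes were called, 4324 with the block and the GC correction, and in the wider lists 15 and 28. In these block fits 1 fission gene was called, Mff with the block (adjusted p = 0.0314 by limma) and Fis1 with the block and the GC correction (adjusted p = 0.0372), and 1 biogenesis gene with both, Ppargc1b. The depth of SG replicate 1 limits low genes: 1 read is worth 3.26 normalized counts there.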
